A study of Rattus norvegicus with 65 samples.

Results

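DEN short is the group of rats that received diethylnitrosamine, abbreviated DEN, once and whose livers were profiled at the short time of a rat study of liver carcinogens. Samples were chosen by their titles: 2 DEN short arrays, replicates 2 and 3, were set against the 3 arrays of the control that the titles give to the genotoxic set, so that 5 of the 65 arrays of the series carry the main comparison. Every animal was a male Sprague-Dawley rat of 6 weeks, and each array held the liver RNA of 1 rat. The source label of the treated animals gives 3 hours for the short groups and 72 hours for the long ones, while the treatment protocol describes repeated dosing for the long groups and an autopsy a day later. The words short and long are therefore used here, and the time since the dose is not settled. The control animals are labelled untreated in the source name, without a time, while their description carries the letters vc. Whether they received a vehicle is not settled. No dose of DEN is given in the labels used here. The groups beside them are DEN long (3 rats, repeated DEN), AAF short (3 rats, titled 2-AAF) and MeDAB short (3 rats, titled 3MeDAB). The design text lists diethylnitrosamine, 2-acetylaminofluorene and an azobenzene among the compounds without pairing them with these abbreviations, and short is taken as a single dose because the protocol speaks of repeated administration apart. The study asked which genes tell genotoxic from nongenotoxic carcinogens, and its design text says that 1 failed array was left out. A single bulk liver sample mixes hepatocytes with other cells, so fewer cells of a type and less RNA per cell cannot be told apart.

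DEN is not reactive itself. Cytochrome P450 enzymes of the hepatocyte, Cyp2e1 above all, remove an ethyl group, and the product decays to an ion that ethylates DNA, RNA and protein. Damaged DNA stabilises the transcription factor p53, whose targets stop the cell cycle, start cell death, feed back on p53 itself through Mdm2 and add to repair. Lesions in a transcribed strand also halt RNA polymerase II, and a polymerase is more likely to meet one the longer the gene is. Stress kinases act in parallel on immediate early genes, which need no new protein to be switched on.

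All values are log2 RMA signals of 1 probe set per gene, the one with the highest mean among those with a single symbol. Differences are log2 differences ± SE from a limma fit of 41 arrays with Benjamini-Hochberg adjusted p-values over 10648 genes, and a gene is called at an adjusted p under 0.05. Only 2 rats stand on 1 side, and the spread was borrowed from all 14 groups of the fit. Hepatocyte markers checked the tissue label: albumin, the main plasma protein, was at 14.75 and 14.76 in DEN short, against 14.78, 14.75 and 14.95 in the controls, and limma called none of 17 tested hepatocyte markers (1, lower, at an unadjusted p under 0.05). Control replicate 1 stood apart from the other 2 controls, with 115 and 106 genes over 1 log2 unit away from them, against 3 such genes between control replicates 2 and 3 and 63 between the 2 DEN short rats. Without that control 618 genes were called higher and 895 lower. Of the measures of RNA integrity, the 3' minus 5' difference of the Gapdh control probe sets was 0.744 and 0.750 in DEN short and 0.443, 0.453 and 0.633 in the controls, without overlap. That of beta-actin was 3.42 and 3.36 in DEN short and 2.98, 3.01 and 3.41 in the controls, with overlap. AAF short rats reached 0.476 to 0.966 on the Gapdh measure.

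DEN short changed a large part of the liver transcriptome. In all, 790 genes were higher (7.42% of those tested) and 1139 lower (10.7%), of which 170 rose and 112 fell by over 1 log2 unit. The 2 DEN short arrays lay outside the range of the 3 controls for 788 of the higher and 1137 of the lower genes. Calling a gene already favours such separation, and the share without overlap among all tested genes was not counted, so these counts add no support. Counts of list members for this comparison are to be read against 7.42% and 10.7%. Those of the later contrasts are to be read against the shares given with each contrast. Among the 30 named genes, the controls of Atf3, Mybl1, Gdf15, Pvr and Maff and the DEN short rats of Fam111a, Esrrg, Pilra, Dock4 and Mitf all lie below the filter level of log2 6.22. No background measure was used, so these low levels were not shown to be above background and no fold is given for these genes. The counts rest on few animals: without DEN short replicate 3 they were 321 higher and 535 lower, and without DEN short replicate 2 they were 530 and 657.

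**Figure D1:**
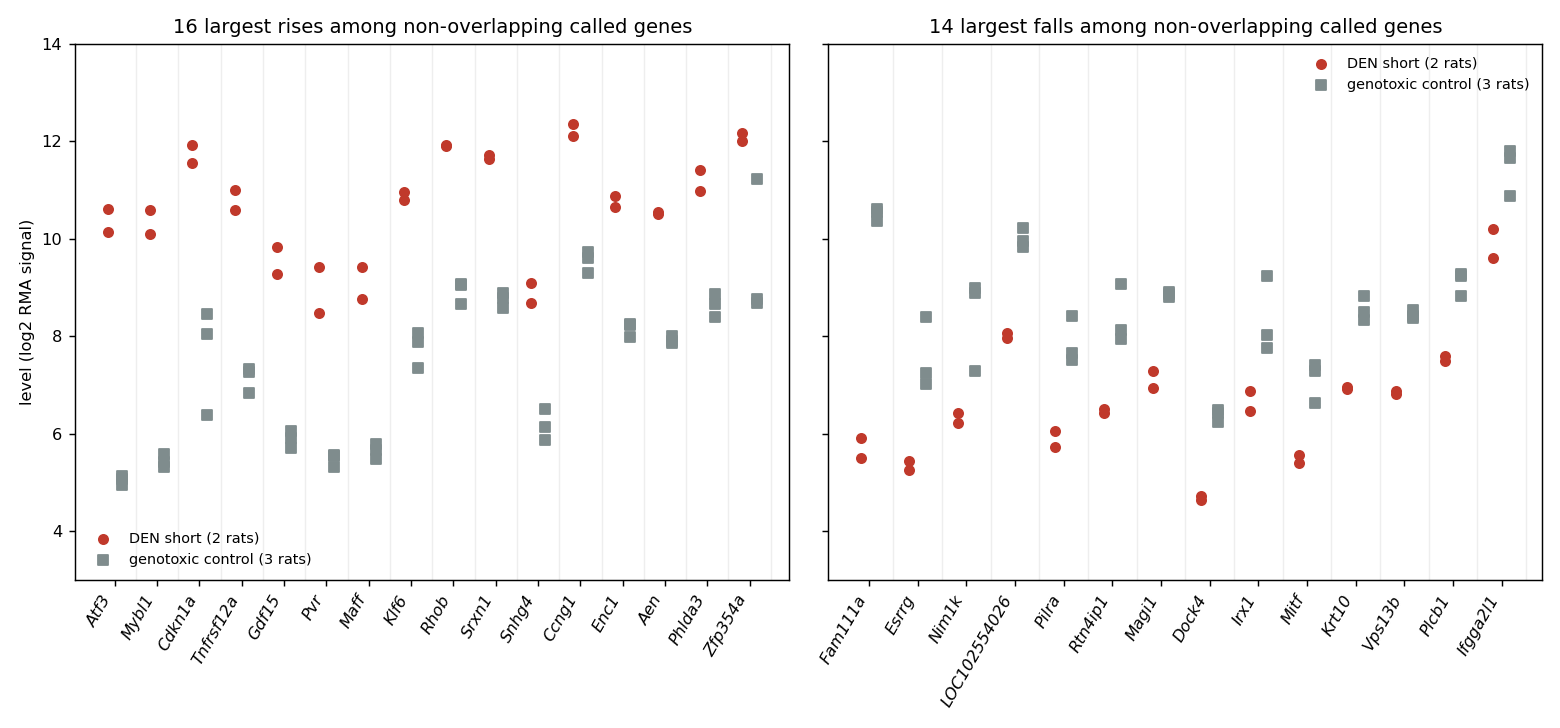
Level of each gene (log2 RMA signal, y axis) in the 2 DEN short rats (circles) and the 3 genotoxic control rats (squares), for the 16 largest rises and the 14 largest falls among called genes chosen for groups that do not overlap. Control replicate 1 of Zfp354a (11.23) lies closest to the treated rats among the genes that rose.

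Among the roles of p53 targets, arrest and feedback had the highest median difference (1.64). Cdkn1a, which encodes the cell cycle inhibitor p21, was at 11.55 and 11.92 in DEN short, against 6.38, 8.04 and 8.46 in the controls. Control replicate 1 had the lowest value, and the difference was 4.11 ± 0.48 (adjusted p = 2.89e-07), or 17.3-fold, and 3.49 without control replicate 1. Ccng1, the p53 target that encodes cyclin G1, was at 12.11 and 12.35 in DEN short, against 9.72, 9.60 and 9.29 in the controls, a tight pair of groups with a difference of 2.70 ± 0.16 (adjusted p = 4.47e-13). Mdm2, the ligase that marks p53 for degradation, was at 10.94 and 10.80 in DEN short, against 8.44, 8.54 and 8.62 in the controls and rose by 2.34 ± 0.22 (adjusted p = 5.12e-09), with its other probe sets rising less, down to 1.00. Gadd45a (2.01), a growth arrest and repair factor, Plk2 (1.74), a polo-like kinase, and Gtse1 (1.26), which moves p53 out of the nucleus, rose too, so that 6 of 10 tested members were higher and none lower. The feedback phosphatase Ppm1d was at 0.47, Plk3 at 0.43, Rprm at 1.54 with rats at 6.79 and 8.78, and the p53 inhibitor Mdm4, a gene of 146.0 kilobases, at -0.60, none of them called.

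Death genes followed with 6 of 11 higher and 1 lower. Aen, a nuclease that p53 induces, was at 10.52 and 10.55 in DEN short, against 7.90, 7.87 and 8.01 in the controls, a difference of 2.61 ± 0.21 (adjusted p = 1.43e-10). Its second probe set was at 1.24. Phlda3, an inhibitor of the survival kinase Akt, was at 10.99 and 11.42 in DEN short, against 8.39, 8.86 and 8.66 in the controls and rose by 2.57 ± 0.18 (adjusted p = 6.3e-12). Bbc3, the BH3-only protein Puma, was at 9.11 and 9.29 in DEN short, against 8.02, 7.93 and 7.79 in the controls, which is 1.29 ± 0.19 (adjusted p = 1.14e-05). Tp53inp1 (1.08), Pidd1 (0.79) and the death receptor Fas (0.76) rose by smaller amounts, while Apaf1, the core of the apoptosome, fell by 0.63 ± 0.15 (adjusted p = 0.00349), with 2 probe sets that disagree (-0.63 and 0.09).

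Among secreted, metabolic and RNA-binding targets 4 of 9 were higher and none lower. Gdf15, a secreted stress cytokine, was at 9.83 and 9.28 in DEN short, against 5.71, 5.92 and 6.06 in the controls, a difference of 3.66 ± 0.46 (adjusted p = 9.52e-07). The mTOR inhibitor Sesn2 (0.94), the RNA-binding Zmat3 (0.71) and the ubiquitin ligase Trim32 (0.54) also rose. Repair targets of p53 stayed near the control: of 6 tested members only Pcna, the sliding clamp of DNA synthesis, was higher (0.42 ± 0.11 (adjusted p = 0.00946)), and Mgmt, the methyltransferase that takes alkyl groups off guanine, was at 9.16 and 8.98 in DEN short, against 9.47, 9.01 and 9.04 in the controls, a difference of -0.10 ± 0.15 (adjusted p = 0.697) with a 95% interval from -0.40 to 0.19. Over all 4 roles 17 of 36 tested p53 targets were higher and 1 lower, with a median difference of 0.45 against -0.03 for all genes.

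**Figure D2:**
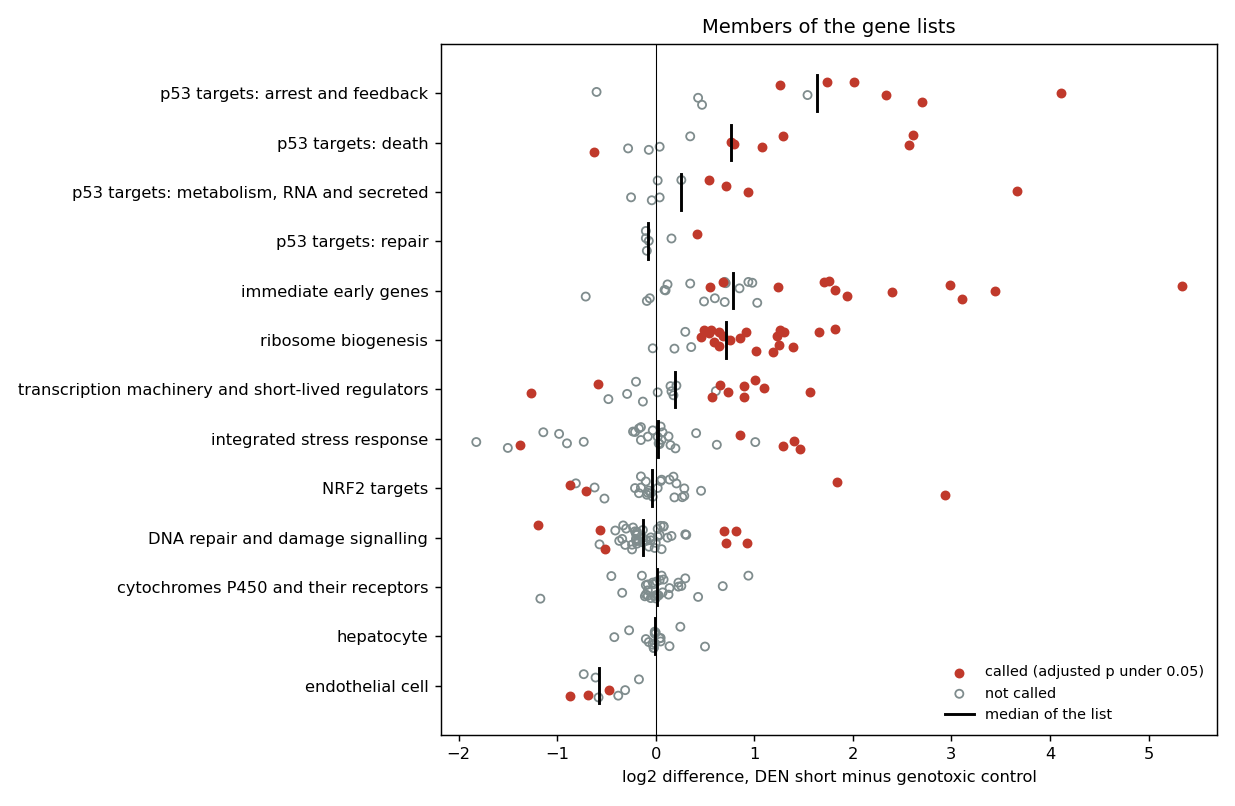
Log2 difference of DEN short minus genotoxic control (x axis) for each tested member of 13 gene lists (rows), with called genes filled, uncalled genes open and the list median as a bar. The p53 lists of arrest and death, the immediate early genes and the ribosome biogenesis genes lie mostly to the right, the hepatocyte markers and cytochromes P450 lie around 0, and the endothelial markers lie to the left.

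Immediate early genes rose in part: 12 of 28 tested members were higher and none lower, with a median of 0.78. Atf3, a stress-induced transcription factor of the ATF and CREB family, was at 10.15 and 10.62 in DEN short, against 5.13, 4.94 and 5.07 in the controls. The difference was 5.34 ± 0.50 (adjusted p = 5.12e-09), the first in rank of the called genes without overlap. Maff, a small Maf factor that partners NRF2 and other bZIP proteins, was at 9.43 and 8.76 in DEN short, against 5.49, 5.79 and 5.67 in the controls, which is 3.44 ± 0.70 (adjusted p = 0.000605). Klf6, a zinc finger factor of injured liver, was at 10.79 and 10.96 in DEN short, against 7.34, 8.06 and 7.88 in the controls and rose by 3.11 ± 0.31 (adjusted p = 1.34e-08). These genes were picked among called genes without overlap, so the separation of treated and control rats adds no support. Rhob, a small GTPase induced by genotoxic stress, was at 11.93 and 11.91 in DEN short, against 8.67, 9.08 and 9.05 in the controls, a difference of 2.99 ± 0.33 (adjusted p = 1.23e-07).

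Jun, the main partner in AP-1, was at 11.89 and 11.87 in DEN short, against 8.68, 9.84 and 9.94 in the controls, which is 2.40 ± 0.45 (adjusted p = 0.00027), with control replicate 1 the lowest value. Jund, its relative, was higher by 1.24, although its 3 probe sets ran from -0.01 to 1.24. Ccn1 (1.94), Gadd45b (1.76), Ier5 (1.71), the survival factor Mcl1 (0.68) and the serum response factor Srf (0.55) were called as well. Myc, which drives growth genes, was at 9.75 and 9.76 in DEN short, against 6.84, 8.59 and 8.39 in the controls and passed narrowly, 1.82 ± 0.65 (adjusted p = 0.0482). Of the 16 members that did not pass, Fos was at 4.75 and 5.21 in DEN short, against 4.22, 4.39 and 4.25 in the controls, a low signal in both groups (0.70 ± 0.39 (adjusted p = 0.233)), Egr1 was at 0.94 ± 0.69 (adjusted p = 0.384), Junb at 0.49, Dusp1 at 0.71 and Zfp36 at 0.70.

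Promoters of the responding regulators were searched for 5 motifs on both strands, in windows from 250 bases before to 50 bases after the annotated start in the RefSeq table of build GRCr8. Of the 30 called genes of the p53 and immediate early lists, which include Apaf1 that fell, 24 have a window and 10 hold a motif. The share of all windows with any of the 5 motifs was not counted, so 10 of 24 has nothing to be read against. Of the 10 genes with a motif, the 5 with the largest differences are shown, cut 30 bases after the start. They carry motifs that were more frequent among the genes that rose, but were picked for holding a motif, so they add no support. Capitals mark TGACGTCA, the cyclic AMP response element bound by ATF and CREB factors, and CACGTG, the E-box bound by Myc and related proteins.
Maff, chr7:112792537-112792816, plus strand: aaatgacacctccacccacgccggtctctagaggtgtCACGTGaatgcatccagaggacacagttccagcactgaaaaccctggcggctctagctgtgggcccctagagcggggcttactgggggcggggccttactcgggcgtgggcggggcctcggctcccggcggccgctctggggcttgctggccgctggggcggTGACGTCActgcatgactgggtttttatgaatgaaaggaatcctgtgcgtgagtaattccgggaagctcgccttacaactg
Klf6, chr17:69458449-69458728, minus strand: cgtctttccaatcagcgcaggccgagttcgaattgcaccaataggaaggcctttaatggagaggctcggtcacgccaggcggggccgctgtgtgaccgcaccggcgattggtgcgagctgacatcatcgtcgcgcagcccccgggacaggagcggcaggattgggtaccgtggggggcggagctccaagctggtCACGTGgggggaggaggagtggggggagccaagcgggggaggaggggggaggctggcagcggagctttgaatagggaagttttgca
Aen, chr1:142224283-142224562, plus strand: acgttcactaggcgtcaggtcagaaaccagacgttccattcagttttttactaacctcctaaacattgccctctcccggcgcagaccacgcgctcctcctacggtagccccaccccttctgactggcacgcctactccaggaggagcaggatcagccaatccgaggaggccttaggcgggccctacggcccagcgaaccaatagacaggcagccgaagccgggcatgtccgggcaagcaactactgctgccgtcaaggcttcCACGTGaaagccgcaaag
Gadd45b, chr7:9430689-9430968, minus strand: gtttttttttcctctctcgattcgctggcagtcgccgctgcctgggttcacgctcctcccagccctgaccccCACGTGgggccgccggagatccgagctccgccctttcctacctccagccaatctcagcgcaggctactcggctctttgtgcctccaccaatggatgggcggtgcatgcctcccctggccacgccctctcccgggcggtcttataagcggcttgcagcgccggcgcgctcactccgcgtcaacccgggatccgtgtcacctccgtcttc
Plk2, chr2:43702286-43702565, plus strand: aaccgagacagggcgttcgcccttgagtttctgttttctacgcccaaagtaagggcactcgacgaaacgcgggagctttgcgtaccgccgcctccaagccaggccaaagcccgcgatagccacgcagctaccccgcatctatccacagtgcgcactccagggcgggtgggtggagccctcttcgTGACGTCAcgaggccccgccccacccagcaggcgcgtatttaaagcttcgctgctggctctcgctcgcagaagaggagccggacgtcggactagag
Maff holds TGACGTCA with its first base at position -51 and CACGTG at position -213 from the start, and Plk2 holds TGACGTCA at -66. Klf6 holds CACGTG at -56, Gadd45b at -178, and Aen just inside the transcript at 13.

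Over 8894 tested genes with a window, TGACGTCA stood in 6.84% of the promoters of genes called higher (47 of 687), 1.25% of those called lower (12 of 962) and 3.08% of all. CACGTG stood in 13.7% of the higher, 7.59% of the lower and 9.60% of all promoters. Besides Maff and Plk2, TGACGTCA was found before the bromodomain gene Brd2, the eIF2 phosphatase subunit Ppp1r15a, Jund, the ephrin receptor Epha2 and the tubulin gene Tubb2a. The AP-1 pattern TGANTCA did not follow the calls in this way, with 5.09%, 4.68% and 4.92%, and GGANTTCC, a pattern of the NF-kB kind, stood in 8.73%, 6.44% and 5.51%. A p53 response element (a pair of decamers with at most 13 bases between them and no mismatch allowed) was found in 2 of the 8894 windows. Of the 687 genes called higher Eif2ak2, named after its value was seen, was the 1 that held it. Imperfect sites and sites outside the windows were not searched, so these counts do not show that p53 sites are absent. These shares are descriptions and were not tested, and a motif in a window is not a bound site.

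Genes of ribosome biogenesis, which process ribosomal RNA in the nucleolus, rose together: 20 of 24 tested members were higher and none lower, with a median of 0.71. Rrs1, a factor of the large subunit, was at 11.43 and 11.59 in DEN short, against 9.43, 9.77 and 9.88 in the controls, which is 1.82 ± 0.22 (adjusted p = 7.11e-07). Nop56, a core protein of box C/D particles, was at 11.33 and 11.61 in DEN short, against 9.70, 9.83 and 9.89 in the controls and rose by 1.66 ± 0.21 (adjusted p = 9.35e-07). Gar1, of the box H/ACA particles, rose by 1.39 ± 0.26 (adjusted p = 0.000215). Rrp12 (1.30), Nolc1 (1.26), Nop58 (1.25), Heatr1 (1.23) and Ddx21 (1.19) followed, and nucleolin (Ncl), abundant in both groups at 11.87 and 12.12 in DEN short, against 11.58, 11.50 and 11.50 in the controls, rose by 0.46. Only Fbl (0.36), Nhp2 (0.30), Polr1a (0.19) and Utp20 (-0.03) were not called. Of the 19 members under 30 kilobases 17 were higher, beside 10.5% of all 6248 genes of that span, and the part of span was not tested. CACGTG stood in 9 of 21 promoters of the list. The count fell to 11 without DEN short replicate 3.

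Parts of the transcription machinery and short-lived regulators rose as well, 8 of 20 with 2 lower. Brd2, a bromodomain reader of acetylated chromatin, was at 10.15 and 10.33 in DEN short, against 8.55, 8.66 and 8.80 in the controls, which is 1.57 ± 0.15 (adjusted p = 5.12e-09), although its second probe set was at 0.08. Polr2a, the large subunit of RNA polymerase II, was at 10.06 and 10.33 in DEN short, against 9.35, 9.49 and 9.54 in the controls and rose by 0.73 ± 0.20 (adjusted p = 0.0106). Its elongation kinase Cdk9 (0.65), the inhibitor of that kinase Hexim1 (0.57), the antiproliferative Tob1 (1.10) and Tob2 (0.90), Hes1 (1.01) and Sertad1 (0.90) rose too. Id3, an inhibitor of bHLH factors, fell, with 9.03 and 9.14 in DEN short, against 10.00, 10.60 and 10.41 in the controls, which is -1.26 ± 0.26 (adjusted p = 0.000835), and Sertad3 fell by 0.59 on the log2 scale.

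Of the largest rises outside the lists described so far, Mybl1, which encodes the transcription factor A-Myb of the MYB family, was at 10.59 and 10.09 in DEN short, against 5.32, 5.42 and 5.59 in the controls, which is 4.90 ± 0.32 (adjusted p = 1.28e-12). Of 33 tested genes of the proliferation list, 4 were higher, Mybl1, Cdc25a (0.83), Mcm7 (0.74) and Mybl2 (0.56), beside 7.42% of all genes. Mki67 (-0.31), Top2a (-0.23), Ccnb1 (0.19) and Cdk1 (0.06) were not called. Tnfrsf12a, the receptor of the cytokine TWEAK on injured hepatocytes, was at 10.60 and 11.01 in DEN short, against 6.83, 7.27 and 7.32 in the controls, a difference of 3.66 ± 0.34 (adjusted p = 5.12e-09). Pvr, the surface ligand CD155 of natural killer and T cell receptors, was at 8.48 and 9.43 in DEN short, against 5.32, 5.57 and 5.54 in the controls, with the 2 treated rats almost 1 unit apart and a difference of 3.48 ± 0.44 (adjusted p = 1.03e-06).

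Srxn1, the sulfiredoxin that restores oxidised peroxiredoxins and an NRF2 target, was at 11.63 and 11.73 in DEN short, against 8.58, 8.88 and 8.79 in the controls, which is 2.93 ± 0.37 (adjusted p = 1.04e-06), but its 3 probe sets ran from 0.20 to 2.93. Of 28 NRF2 targets Srxn1 and the glutathione transferase Gstm3 (1.84) were higher, Abcc2 (-0.71) and Abcc4 (-0.87) were lower, counts near the 7.42% and 10.7% of all genes, and Nqo1 was at 0.21 ± 0.27 (adjusted p = 0.659). Snhg4, a host gene of small nucleolar RNA, was at 8.68 and 9.09 in DEN short, against 5.87, 6.50 and 6.13 in the controls, a difference of 2.72 ± 0.34 (adjusted p = 8.04e-07). Enc1, an actin-binding kelch protein, rose by 2.61 ± 0.40 (adjusted p = 2.33e-05), with 4 probe sets between -0.06 and 2.61. Enc1 was also called higher in the short groups of clofibrate (2.76), ethionine (2.23) and dioxane, each against the nongenotoxic control. Against the genotoxic control it was called higher in AAF short (1.24) and not called in MeDAB short (0.78). A rise of Enc1 was therefore not confined to DEN. Zfp354a, a zinc finger repressor, was at 12.01 and 12.18 in DEN short, against 11.23, 8.76 and 8.69 in the controls, where control replicate 1 reached almost to the treated rats, and its difference was 2.54 ± 0.73 (adjusted p = 0.0145). Leaving out either DEN short rat, control replicate 2 or control replicate 3 ended that call (adjusted p up to 0.115).

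The genes that fell were longer than the rest. Gene span, the genomic distance between the ends of a gene including introns, was taken from the GRCr8 RefSeq annotation for 10607 of the tested genes. The median span was 93.5 kilobases in genes called lower, 11.9 in genes called higher and 23.1 in all genes. The median log2 difference was 0.06 in 2711 genes under 10 kilobases, 0.03 in 3537 genes of 10 to 30, -0.11 in 3038 genes of 30 to 100, -0.38 in 1106 genes of 100 to 300 and -0.46 in 215 genes over 300 kilobases. In the same order the share called lower was 2.14%, 3.79%, 13.3%, 40.2% and 44.2%, and the share called higher was 12.1%, 9.36%, 4.05%, 0.452% and 0.465%. Genes over 100 kilobases made up 12.4% of all genes and 47.4% of those called lower, 540 genes. Only 6 of 1321 such genes were higher, Ablim3, Atp7a, C12h7orf50, Fat1, Limk2 and, above 300 kilobases, Rasgef1b. The shift was small and broad rather than confined to a few genes, since 85.8% of the genes of 100 to 300 kilobases had a difference below 0.

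**Figure D3:**
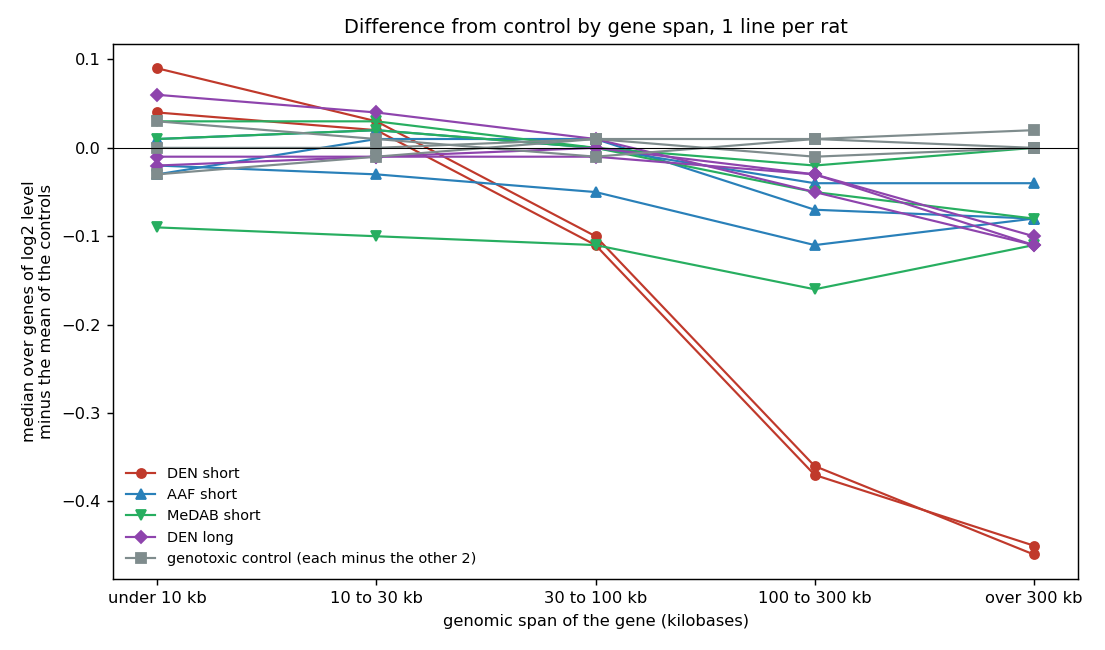
Median over genes of the log2 level minus the mean of the 3 controls (y axis) in 5 bins of gene span (x axis), with 1 line per rat and each control set against the mean of the other 2. Both DEN short rats fall to -0.46 and -0.45 over 300 kilobases, while the AAF short, MeDAB short and DEN long rats lie between -0.11 and 0.00 there.

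Both DEN short rats showed the pattern alike. Over 300 kilobases the median was -0.46 in replicate 2 and -0.45 in replicate 3, against 0.02, 0.00 and 0.00 in the controls, and in the bin of 100 to 300 kilobases it was -0.36 and -0.37 in DEN short, against 0.01, 0.01 and -0.01 in the controls. The gap between genes over 100 and under 30 kilobases was -0.43 and -0.41 in the DEN short rats. It was -0.08 to -0.05 in AAF short, -0.08 to -0.03 in MeDAB short and -0.11 to -0.03 in DEN long, measured from the same controls. The rats after repeated AAF had gaps of -0.01, -0.28 and -0.14, and those after repeated MeDAB -0.23 each, so smaller gaps occurred elsewhere in the set. As 1 value per array, the gap differed by -0.43 between DEN short and the controls (exact permutation test, two-sided p = 0.2, the smallest that 2 against 3 allow) and by -0.38 between DEN short and the 6 AAF and MeDAB short rats (exact permutation p = 0.0714, the smallest that 2 against 6 allow). These designs cannot reach 0.05. Across genes the Spearman correlation of span with the difference was -0.39, a description over genes that share the arrays.

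Signal level differed with span, and of the 2 RNA integrity measures Gapdh differed between the groups without overlap while beta-actin overlapped. The median level over all 65 arrays was 8.35 in genes under 10 kilobases and 7.15 in those over 300. Among genes above the 75th percentile of mean level, the medians in the 5 bins were 0.02, -0.04, -0.17, -0.40 and -0.74. The last 2 of these bins held only 147 and 24 such genes. With no filter on low values the longest bin was at -0.08. On the Gapdh measure given above both DEN short rats exceeded the controls, and its part in the span pattern was not tested. On the same measure AAF short rats had 0.48, 0.97 and 0.60, with gaps between long and short genes of -0.08, -0.05 and -0.07. MeDAB short rats had 0.64, 0.62 and 0.80, with gaps of -0.08, -0.06 and -0.03. For DEN short against control, treatment and this measure cannot be told apart.

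Of the 14 named genes that fell, 6 span over 100 kilobases, and of the 16 that rose none does. Magi1, a scaffold of cell junctions that spans 605.6 kilobases, was at 6.93 and 7.29 in DEN short, against 8.90, 8.81 and 8.86 in the controls. The groups are over 1 unit apart, and the difference was -1.74 ± 0.19 (adjusted p = 6.27e-08), although its 5 probe sets ran from -1.74 to 0.11. Plcb1, a phospholipase C of G protein signalling (711.3 kilobases), was at 7.60 and 7.50 in DEN short, against 8.83, 9.23 and 9.27 in the controls, which is -1.56 ± 0.17 (adjusted p = 1.27e-07). Vps13b, a lipid transfer protein of the Golgi (576.6 kilobases), was at 6.81 and 6.88 in DEN short, against 8.53, 8.38 and 8.42 in the controls, which is -1.60 ± 0.18 (adjusted p = 1.86e-07). Both genes had a single probe set and narrow groups.

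Dock4, an activator of Rac (389.7 kilobases), was at 4.73 and 4.64 in DEN short, against 6.42, 6.49 and 6.24 in the controls, a low signal with a difference of -1.70 ± 0.24 (adjusted p = 5.32e-06). Mitf, a bHLH factor of lysosome and pigment genes (212.1 kilobases), was at 5.39 and 5.57 in DEN short, against 6.64, 7.41 and 7.28 in the controls, which is -1.63 ± 0.26 (adjusted p = 3.59e-05). Esrrg, an orphan nuclear receptor of oxidative metabolism (617.8 kilobases), was at 5.45 and 5.26 in DEN short, against 8.39, 7.24 and 7.03 in the controls, which is -2.20 ± 0.44 (adjusted p = 0.000541). Its second probe set was at -0.43.

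Several of the shorter named genes were less stable. Fam111a, a protease of replicating cells, was at 5.91 and 5.51 in DEN short, against 10.36, 10.61 and 10.56 in the controls, the largest fall (-4.80 ± 1.71 (adjusted p = 0.0483)), but its level split within other groups too: AAF short rats were at 9.80, 6.51 and 9.34, and 9 of 14 alternatives ended the call (adjusted p up to 0.223). Rtn4ip1, a mitochondrial oxidoreductase, fell by 1.92 ± 0.41 (adjusted p = 0.00095) in its main probe set and was at -0.11 in the other. LOC102554026, of unknown role here, was at -1.99 ± 0.42 (adjusted p = 0.000978). Nim1k, a kinase (-2.06), Pilra, an inhibitory receptor of myeloid cells (-1.96), Krt10, a keratin (-1.61), the homeobox gene Irx1 (-1.67) and Ifgga2l1 (-1.55) passed with adjusted p-values between 0.00794 and 0.0443, and each lost its call in at least 1 alternative. The second probe set of Irx1 was at -0.09. Ifgga2l1 was also called lower in AAF short (-1.81), MeDAB short (-1.65) and the ethionine short group (-1.35). It was not called in the short groups of dioxane (-1.20) or clofibrate (-0.97).

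The next lists cover hepatocyte metabolism. Of 32 tested cytochromes P450 and their receptors limma called none in either direction, and none had an unadjusted p under 0.05. Cyp2e1, which activates DEN, was at 13.40 and 13.59 in DEN short, against 13.58, 13.37 and 13.41 in the controls, a difference of 0.04 ± 0.09 (adjusted p = 0.805) with a 95% interval from -0.14 to 0.23. Cyp1a1 was at 0.68 (adjusted p = 0.544). Limma called none of 25 PPAR alpha and fatty acid oxidation genes and none of 19 growth hormone dependent genes (2 of each list, all lower, at an unadjusted p under 0.05). Acaca (-0.75) was the 1 of 17 lipogenic genes that fell, Pmvk (0.57) the 1 of 18 cholesterol genes that rose, and the exporters Abcb11 (-0.44) and Abcc2 (-0.71) fell among 16 bile acid genes. Klf9 rose (0.97) and Pc fell (-0.57) among 23 fasting and glucocorticoid genes, and Hlf fell (-0.70) as the 1 called gene of 16 clock genes. The deadenylase Noct, at 2.07, did not pass (adjusted p = 0.0915).

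Of 28 tested liver transcription factors 2 were higher and 6 lower, of which 4 span over 100 kilobases: Esrrg, the thyroid hormone receptor Thrb (-1.21, 349.3 kilobases), Tcf7l2 (-0.89, 192.9), Onecut2 (-0.88, 59.1), the bile acid receptor Nr1h4 (-0.57, 96.0) and Nr5a2 (-0.52, 119.9). Thrb was at 9.71 and 9.29 in DEN short, against 10.66, 10.68 and 10.81 in the controls, with probe sets from -1.21 to 0.06. Esrra (0.77) and Hnf4a (0.41), the master factor of hepatocytes, were higher, the second with probe sets from -0.55 to 0.41. Of 47 DNA repair genes 4 were higher and 3 lower. Prkdc, the catalytic subunit of DNA-PK (217.5 kilobases), was at 6.64 and 6.38 in DEN short, against 7.73, 7.60 and 7.78 in the controls, which is -1.19 ± 0.15 (adjusted p = 6.43e-07). The polymerase Rev3l (-0.57, 158.2 kilobases) and Xrcc5 (-0.51, 88.8) also fell. Lig4 (0.93), Apex1 (0.81), the histone H2ax (0.71) and Ercc6 (0.69), which couples repair to transcription, rose.

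In the other stress lists a few members were called, beside 7.42% of all genes higher and 10.7% lower. No program is read as changed from these counts. In the integrated stress response 4 of 30 were higher, Trib3 (1.46), Ppp1r15a (1.40), Stbd1 (1.29) and Cebpb (0.85), and Chac1 was lower (-1.38), while Atf4 was at 0.05 and Ddit3 at 0.62, not called. Of 13 heat shock genes Hspb8 (1.55), Hspa1a (0.83) and Hsf1 (0.50) rose. Of 18 endoplasmic reticulum chaperone genes Xbp1 rose (0.54), and Sel1l (-0.42), Pdia4 (-0.44) and Atf6 (-0.56) fell. The tubulins Tubb6 (1.94), Tubb2a (1.15) and Tubb4b (1.03) rose and Actn1 fell (-0.52) among 16 cytoskeletal genes. Of 23 chemokines and NF-kB targets Icam1 rose (0.72) and Nfkb1 fell (-0.49), of 20 interferon genes Psmb8 (-0.70) and Psmb9 (-0.58) fell, and of 19 acute phase genes C3 fell in 1 rat. Among 13 growth and injury genes Epha2 (1.15) rose with Tnfrsf12a, and Anxa2 (-0.51) and Lgals3 (-0.64) fell.

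Markers of other liver cells checked the makeup of the samples. Of 9 endothelial markers 3 were lower, Stab2 (-0.87, 205.7 kilobases), Tek (-0.69, 126.7) and Eng (-0.47, 38.1), with a list median of -0.58 and mean levels of 8.63 to 8.77 in DEN short, against 9.03 to 9.39 in the controls. Against the same 3 controls their medians were -0.42 in AAF short and -0.35 in MeDAB short, and limma called none between DEN short and those groups (Stab2 alone had an unadjusted p under 0.05, with a difference of -0.51). The calls in the next lists are to be read against 10.7% of all genes. Of 12 macrophage markers (median -0.32) Mrc1 (-0.75) and C1qb (-0.51) were lower, with mean levels of 10.0 to 10.1 in DEN short, against 10.3 to 10.5 in the controls, and of 12 stellate cell markers (median -0.39) Reln (-0.85) and Col3a1 (-0.44), with 7.79 to 8.09 in DEN short, against 8.09 to 8.20 in the controls. Of 3 cholangiocyte markers Epcam rose (0.92) and Krt19 fell (-0.81). Limma called no neutrophil (3), lymphocyte (6), erythroid (4) or pancreas (2) marker, and at an unadjusted p under 0.05 only 2 lymphocyte markers were lower. The 4 erythroid markers had a median of 0.17 and the neutrophil markers -0.02. Their part in the lower genes was not tested.

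A direct contrast with the other genotoxic compounds at the short time, DEN short minus the mean of AAF short and MeDAB short, uses no control but the same DEN short arrays. It called 806 genes higher (7.57%) and 1028 lower (9.65%). Atf3 was at 10.15 and 10.62 in DEN short, against 6.62, 6.39 and 6.31 in AAF short and 6.55, 4.92 and 5.43 in MeDAB short, a difference of 4.35 ± 0.45 (adjusted p = 4.5e-08). Mybl1 (3.70), Tnfrsf12a (3.31), Gdf15 (2.82), Pvr (2.44) and Maff (2.26) were also among the 8 highest. Phlda3 was at 10.99 and 11.42 in DEN short, against 8.37, 8.41 and 8.03 in AAF short and 8.48, 8.18 and 7.96 in MeDAB short, which is 2.97 ± 0.16 (adjusted p = 1.26e-14). Otud1, a deubiquitinating enzyme, was at 10.74 and 11.00 in DEN short, against 8.26, 8.65 and 8.61 in AAF short and 8.61, 8.36 and 8.66 in MeDAB short, the same range as the controls (8.58, 8.44 and 8.36), with a difference of 2.35 ± 0.23 (adjusted p = 2.02e-08).

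Of the 36 p53 targets 17 were higher in DEN short than in the other short groups and 1 lower, of 28 immediate early genes 11 higher and 1 lower, and of 24 ribosome biogenesis genes 18 higher. Of 20 interferon response genes 8 were higher and none lower, with a median of 0.54, among them the ubiquitin-like modifier Isg15 at 9.18 and 9.05 in DEN short, against 8.28, 8.81 and 7.95 in AAF short and 8.47, 8.20 and 8.27 in MeDAB short (0.79 ± 0.22 (adjusted p = 0.0141)). The control rats had 8.99, 9.05 and 8.88 for Isg15, and against the controls the median of the list was 0.07 in DEN short, -0.37 in AAF short and -0.39 in MeDAB short. Cdkn1a differed less between compounds (1.63 ± 0.43 (adjusted p = 0.00753)), with AAF short rats at 11.16, 10.28 and 10.99. Zfp354a was not called (-0.12 ± 0.66 (adjusted p = 0.929)) and had 12.50, 12.29 and 12.56 in AAF short. Against the nongenotoxic control, Zfp354a was also called higher in the short groups of dioxane (2.40) and ethionine (2.19), and not called for clofibrate (2.03). At the other end Cyp1a1, the target of the aryl hydrocarbon receptor, was at 5.71 and 6.88 in DEN short, against 13.32, 10.10 and 11.63 in AAF short and 11.77, 11.03 and 10.91 in MeDAB short, a difference of -5.17 ± 0.60 (adjusted p = 3.88e-07) with control rats at 5.75, 5.38 and 5.72. The membrane-anchored ligand Efna5 (-1.65), Rtn4ip1 (-2.26), Esrrg (-2.16), the protease inhibitor Mug1 (-1.67) and Magi1 (-1.59) were lower in DEN short, as were Sdr42e1 (-1.63) and Tor3a (-1.62), which DEN short left near its control (-0.39 and -0.18, not called). Long genes differed here too, with medians of -0.29 and -0.33 in the last 2 span bins and 35.4% and 42.3% of them called lower.

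**Figure D4:**
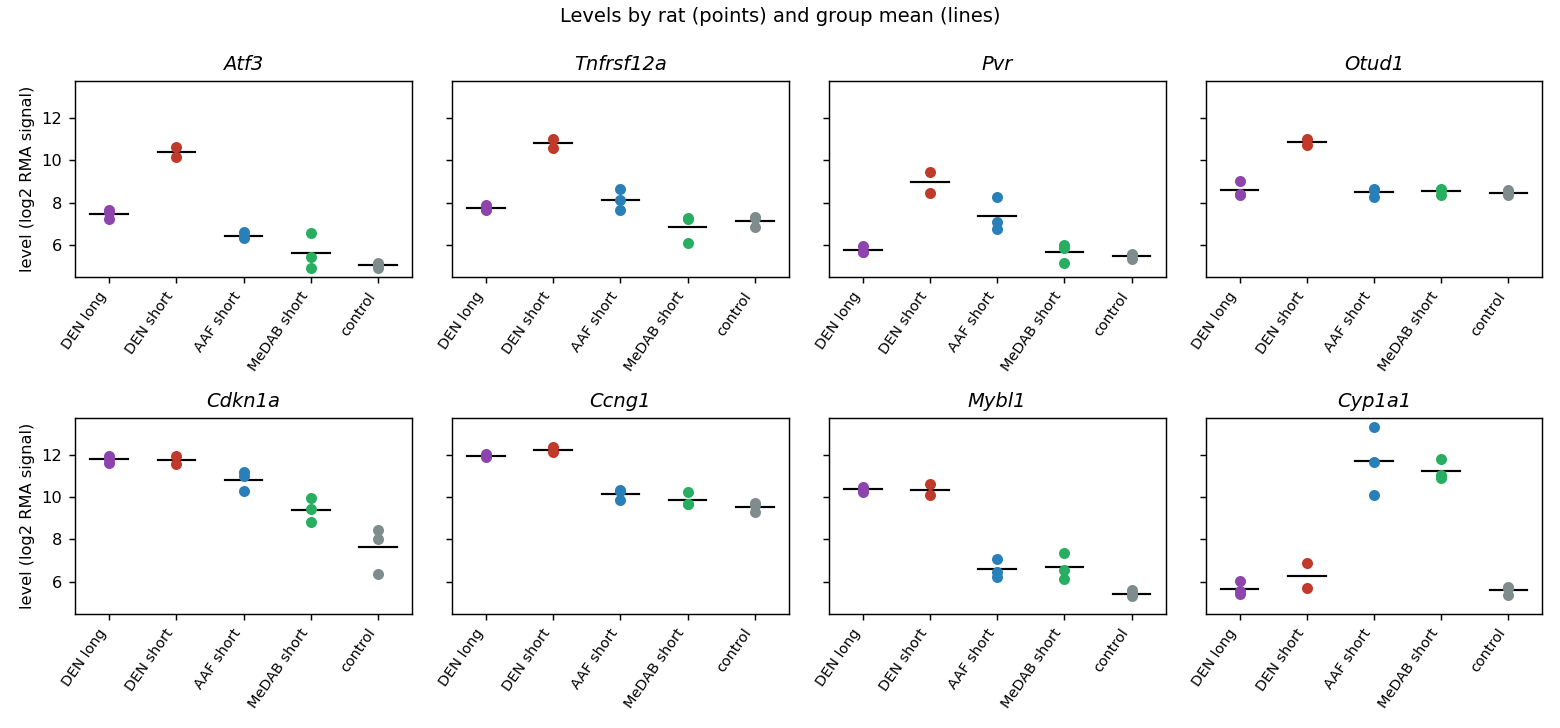
Level (log2 RMA signal, y axis) of 8 genes in each rat (points) and group mean (lines) for DEN long, DEN short, AAF short, MeDAB short and the genotoxic control. Atf3, Tnfrsf12a, Pvr and Otud1 are highest in DEN short, Cdkn1a, Ccng1 and Mybl1 were not called between DEN long and DEN short, and Cyp1a1 is high in AAF short and MeDAB short.

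The last contrast sets repeated against single dosing. DEN long minus DEN short called 2024 genes higher (19.0%) and 1271 lower (11.9%). Many stress genes were lower in DEN long: Atf3 was at 7.24, 7.66 and 7.54 in DEN long, against 10.15 and 10.62 in DEN short, which is -2.90 ± 0.50 (adjusted p = 4.18e-05). Tnfrsf12a was at 7.64, 7.71 and 7.87 in DEN long, against 10.60 and 11.01 in DEN short (-3.07 ± 0.34 (adjusted p = 6.53e-08)), and Pvr at 5.67, 5.66 and 5.97, against 8.48 and 9.43 (-3.19 ± 0.44 (adjusted p = 1.99e-06)). Of 28 immediate early genes 14 were lower in DEN long and 2 higher, and of 24 ribosome biogenesis genes 18 were lower, with Rrs1 at -2.54. Jun fell by 2.09 ± 0.45 (adjusted p = 0.000589).

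Cdkn1a, Ccng1 and Mybl1 were not called between the DEN groups. Cdkn1a was at 11.61, 11.80 and 11.92 in DEN long, against 11.55 and 11.92 in DEN short (0.04 ± 0.48 (adjusted p = 0.965)), and Ccng1 at 11.88, 11.94 and 12.04, against 12.11 and 12.35 (-0.28 ± 0.16 (adjusted p = 0.206)). Mybl1 had 10.25, 10.35 and 10.49 in DEN long, against 10.59 and 10.09 in DEN short (0.02 ± 0.32 (adjusted p = 0.968)). Of the 36 p53 targets 7 were higher and 6 lower, with Gadd45a (-1.80) and Gdf15 (-1.70) lower. Mgmt, not called after DEN short, was higher in DEN long by 2.27 ± 0.15 (adjusted p = 7.09e-13). Long genes were higher in DEN long than in DEN short, by medians of 0.36 and 0.31 in the last 2 span bins, and 42.9% and 40.9% of them were called higher.

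Several of the highest differences were in genes known from leukocytes. Adam8, a leukocyte metalloprotease, was at 10.96, 11.00 and 11.43 in DEN long, against 5.82 and 5.37 in DEN short, which is 5.53 ± 0.24 (adjusted p = 3.01e-17). Gpnmb, a glycoprotein of macrophages (4.44), the survival factor Bcl2a1 (3.05), Fabp4 (2.84), Pilra (2.89), Slc66a3 (2.74), the phospholipase Pla2g2a (2.74) and Esrrg (2.80) followed, and 11 of 12 macrophage markers (with 1 lower) and 10 of 12 stellate cell markers were higher. In DEN short none of the 12 macrophage markers was higher than in the controls. Onecut1, a hepatocyte factor, was lowest, at 7.29, 6.36 and 6.22 in DEN long, against 11.09 and 11.23 in DEN short (-4.54 ± 0.85 (adjusted p = 0.000118)). The serine dehydratase Sds (-4.00), the methyltransferase Inmt (-4.12), the mitochondrial carrier Slc25a30 (-3.05) and LOC102549203 (-2.97) were lower too.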

How the data were processed

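Each of the 65 arrays, of an Affymetrix rat design, held liver RNA from 1 rat. What the authors deposited is a log2 value for each of 31099 probe sets after RMA, according to the design text, with the software version not given in the sources used here. The lowest and highest values of the 3 sets do not overlap, which fits normalization set by set. Every contrast used here lies within 1 set, and the values of dioxane, clofibrate and ethionine come from the nongenotoxic set. An array has no sequencing depth, so precision is limited by how many arrays there are. The labels do not say whether replicates were dosed or hybridised on separate days.

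Of the probe sets 20826 have 1 symbol in the platform annotation, several symbols stand on 436 and no symbol on 9780, and the array's own 57 control probe sets were not used. A gene is represented by its brightest single-symbol probe set on average over 65 arrays (14217 genes), and 10648 genes above the median of the 41 fitted arrays (log2 6.22) in at least 2 arrays were tested. The R package limma 3.58.1 (R 4.3.3, with the package data.table at version 1.17.8) fitted 1 mean per group to the 41 arrays of the genotoxic and nongenotoxic sets (27 residual degrees of freedom, prior 3.97), with plain eBayes and Benjamini-Hochberg adjustment, two-sided. Spans and promoters came from RefSeq tables of build GRCr8, joined by Entrez ID (20758 probe sets matched). Tables and figures used Python 3.11.15, pandas 2.3.3, numpy 2.4.6, scipy 1.17.1 and matplotlib 3.10.9. On simulated data with 200 of 10648 genes changed, 89% of changes of log2 1 and 100% of log2 2 were recovered for DEN short minus control, with 9 false calls, 90%, 100% and 7 for DEN short minus the other short groups, and 93%, 100% and 9 for DEN long minus DEN short. The simulated noise was normal, independent between genes and arrays, and of equal spread in every group. Fewer genes were changed than were called in the data, and no array stood apart. These rates may therefore not hold for the data.

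The comparisons and gene lists were chosen with earlier results of these data known. Named genes are the 16 highest and 14 lowest called genes without overlap between the arrays of the compared groups (8 and 8 in the other 2 comparisons), any tested list member, the promoters of up to 5 called p53 or immediate early genes, first those with a motif, and the 5 called genes most unlike between the DEN short rats. The list members given as examples were chosen after their values were seen. Alternatives were no filter, a stricter one (75th percentile, log2 8.15), a filter at the median of 65 columns, quantile normalization, the mean of a gene's probe sets, a trended robust eBayes, the genotoxic set only, the compared groups only, a replicate block and each rat left out.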

Additional observations from a re-analysis of the deposited data

Results flagged for a closer look

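Of the 30 genes named in the comparison of DEN short with its control, 20 had a different effect after repeated DEN, by the limma contrast of DEN long minus DEN short (adjusted p under 0.05). Over all tested genes this contrast called 19.0% higher and 11.9% lower. The control cancels in this contrast, but the genes were chosen by their values in the same DEN short arrays. Such a choice favours differences back toward the control, so the count adds no support. Of the genes that had risen, 11 were lower in DEN long than in DEN short: Atf3 (-2.90), Tnfrsf12a (-3.07), Gdf15 (-1.70), Pvr (-3.19), Maff (-2.38), Klf6 (-2.02), Rhob (-1.34), Srxn1 (-1.62), Snhg4 (-2.24), Aen (-1.03) and Phlda3 (-0.64). Of the genes that had fallen, 9 were higher in DEN long: Esrrg (2.80), LOC102554026 (1.14), Pilra (2.89), Rtn4ip1 (1.67), Magi1 (1.35), Dock4 (0.81), Mitf (1.12), Vps13b (1.03) and Plcb1 (0.69). Duration and number of doses differ together between the groups and cannot be told apart.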

How the results depend on the processing

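With 1 rat left out, the counts of genes called for DEN short minus control were 321 to 623 higher and 535 to 895 lower, for DEN short minus the other short groups 254 to 834 and 404 to 1124, and for DEN long minus DEN short 1264 to 1877 and 680 to 1180. The lowest count of each came without DEN short replicate 3, and without DEN short replicate 2 the second contrast gave 415 and 462. p53 targets called higher ranged over 13 to 17, immediate early genes over 9 to 11 and ribosome biogenesis genes over 11 to 19. With the compared groups only, the second contrast gave 331 higher and 436 lower, and with the genotoxic set only 666 lower. Quantile normalization gave 1008 higher and 1033 lower for DEN short minus control. A filter at the median of 65 columns and settings of the span bins other than quantile normalization and the level cut were chosen after seeing the data. Median differences by span, from the shortest to the longest bin, were 0.09, 0.06, -0.08, -0.36 and -0.46 with quantile normalization, 0.05, 0.03, -0.06, -0.23 and -0.08 with no filter, 0.05, 0.00, -0.14, -0.45 and -0.69 with the stricter filter, 0.06, 0.02, -0.10, -0.32 and -0.43 with the mean of all probe sets, and 0.02, -0.04, -0.17, -0.40 and -0.74 in genes above the 75th percentile of level. With 1 rat left out they were 0.04 to 0.09, 0.02 to 0.03, -0.11 to -0.10, -0.38 to -0.36 and -0.46 to -0.42. The causes were not tested. No background measure was used, and 5 of the 16 named genes that rose (in the controls) and 5 of the 14 that fell (in DEN short) lie below log2 6.22, where the signal limits precision. The replicate block gave 730 higher and 1026 lower for DEN short minus control, 694 and 894 for the second contrast and 1948 and 1235 for the third. Deviations of same-numbered rats of different groups had a mean r of 0.011 over 57 pairs, and -0.219 and 0.153 between DEN short and control. In a group of 2 rats the deviations mirror each other, so this cannot show whether the numbers pair the DEN short rats with controls. Of 418 values of the 30 named genes under these alternatives, 387 kept their call, 31 lost it and none changed sign. In the other 2 contrasts 8 of 272 and 1 of 224 values lost it.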

Other observations

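The 5 called genes most unlike between the DEN short rats differed by 1.01 to 1.94 between the 2 animals. The complement gene C3 was at 12.14 and 14.08 in DEN short, against 14.18, 14.20 and 14.21 in the controls, so that replicate 3 lay next to the controls although the gene passed (-1.09 ± 0.25 (adjusted p = 0.00201)). The integrin gene Itgae was at 7.08 and 8.78 in DEN short, against 7.01, 7.12 and 6.94 in the controls, and only replicate 3 was high (0.91 ± 0.26 (adjusted p = 0.0147)). Adipor2, an adiponectin receptor, was at 7.83 and 8.89 in DEN short, against 9.05, 9.15 and 9.09 in the controls, and the matrix gene Sparcl1 at 7.37 and 6.21 in DEN short, against 8.13, 7.74 and 7.88 in the controls. Exph5 was at 5.49 and 6.50 in DEN short, against 6.34, 8.46 and 7.95 in the controls, where 1 control overlapped the treated rats.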
